A study of Mus musculus with 12 samples.

Results

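The Ube3a region of mouse chromosome 7 is described here across 4 groups of cortical neuron cultures. It was taken as the rows of the count table with the symbols Ube3a, Snrpn, Snurf, Ndn, Magel2, Mkrn3, Atp10a and Herc2, the genes of the imprinted domain and of its border. All 8 symbols were found among the 23893 genes of the table. Snrpn and Snurf are read from the same transcript, and their rows held equal counts in 7 of 12 libraries and differed by at most 2 counts in the others, so the 8 symbols hold 7 separate measurements. Counts of calls below are over the 8 symbols, and a call of Snrpn and Snurf counts the same reads under both names.

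The cultures came from the cortex of mid-gestation embryos of Top1 fl/fl mice, in which exon 3 of Top1 can be cut out by CRE. All 4 groups carried the floxed allele and a lentivirus driven by the CaMKIIα promoter, which is active in neurons. WT cultures received tdTomato alone and Top1 cKO cultures received tdTomato-P2A-CRE at day 3 in vitro, with 85 to 90% of cells transduced per the study's methods. At day 15 the cultures were given vehicle (Veh, 0.003% DMSO) or 300 nM topotecan (Topot), a drug that traps topoisomerase 1 on DNA, and RNA was taken 3 days later. Each group had 3 libraries, which the labels number 1 to 3, and the number was shared across groups.

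Imprinted genes are expressed from the chromosome of 1 parent. In this region the imprinting centre at the Snrpn and Snurf promoter is methylated on the maternal chromosome, and Snrpn, Snurf, Ndn, Magel2 and Mkrn3 are transcribed from the paternal one. In neurons a long noncoding transcript that starts at the same end of the paternal domain, named Snhg14 or Ube3a-ATS, runs into Ube3a on the opposite strand and silences the paternal copy of Ube3a, while glial cells use both copies. Loss of maternal UBE3A causes Angelman syndrome and loss of the paternal genes causes Prader-Willi syndrome. The counts do not separate the parental alleles, so what follows is the sum of both.

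In the NCBIM37 assembly with GENCODE vM1 genes, Ube3a covers chr7:66484122-66562097 on the plus strand and Snrpn covers chr7:67127388-67285105 on the minus strand. Ndn (chr7:69493163-69494814, plus), Magel2 (chr7:69521865-69526526, plus) and Mkrn3 (chr7:69562479-69565039, minus) are each a single exon. Atp10a (chr7:65913572-66084796, plus) and Herc2 (chr7:63305525-63487164, plus) lie on the other side of Ube3a. The spans in GENCODE vM1 differ widely, from 1.65 kb for Ndn to 182 kb for Herc2, with 78.0 kb for Ube3a, 158 kb for Snrpn and 171 kb for Atp10a. A RefSeq start window of Snrpn, at chr7:67595014-67595313 (minus), lies beyond the Snrpn span given here. Snurf had no entry of its own in GENCODE vM1, and in RefSeq it lies wholly within Snrpn.

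Promoters are shown because the parental mark of this domain is methylation of CG pairs, laid down at the Snrpn and Snurf promoter. The 4 windows below are those of the imprinted genes that the results turn on, each from 250 bases before to 50 bases after a RefSeq start (GRCm38.p6 table), and each was found once in NCBIM37, whose positions are given. They are written 5′ to 3′ on the gene's strand, and capitals mark every CG pair. The Ube3a window is chr7:66483870-66484169 (plus), the shared Snrpn and Snurf window is chr7:67150036-67150335 (minus) inside the Snrpn span, the Ndn window is chr7:69492913-69493212 (plus) and the Mkrn3 window is chr7:69564990-69565289 (minus).
Ube3a: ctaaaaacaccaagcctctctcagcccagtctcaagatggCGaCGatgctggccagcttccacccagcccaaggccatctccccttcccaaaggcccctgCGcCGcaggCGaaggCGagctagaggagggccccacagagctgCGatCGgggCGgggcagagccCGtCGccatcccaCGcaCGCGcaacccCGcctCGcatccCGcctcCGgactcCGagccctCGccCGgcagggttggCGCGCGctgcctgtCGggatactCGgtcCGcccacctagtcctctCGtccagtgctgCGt
Snrpn and Snurf: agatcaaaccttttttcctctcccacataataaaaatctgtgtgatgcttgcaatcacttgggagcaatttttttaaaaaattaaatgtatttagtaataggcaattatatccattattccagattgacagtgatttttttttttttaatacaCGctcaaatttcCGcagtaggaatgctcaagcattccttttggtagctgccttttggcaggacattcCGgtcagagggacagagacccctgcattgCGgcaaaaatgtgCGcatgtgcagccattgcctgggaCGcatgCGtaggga
Ndn: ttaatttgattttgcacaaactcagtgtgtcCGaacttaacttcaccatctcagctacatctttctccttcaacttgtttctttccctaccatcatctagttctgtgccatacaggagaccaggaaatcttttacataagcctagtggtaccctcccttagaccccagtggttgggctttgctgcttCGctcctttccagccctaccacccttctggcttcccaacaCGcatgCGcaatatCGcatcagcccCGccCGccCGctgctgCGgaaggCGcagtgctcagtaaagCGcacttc
Mkrn3: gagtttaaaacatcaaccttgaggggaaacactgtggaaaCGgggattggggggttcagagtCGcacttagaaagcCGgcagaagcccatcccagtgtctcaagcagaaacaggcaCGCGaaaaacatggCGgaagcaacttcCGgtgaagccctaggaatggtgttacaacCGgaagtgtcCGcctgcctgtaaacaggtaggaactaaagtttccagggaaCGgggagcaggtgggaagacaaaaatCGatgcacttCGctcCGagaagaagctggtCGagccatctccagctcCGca

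The Ube3a window held 29 CG pairs, more than 87.1% of the 32851 RefSeq promoter windows of the same length. The Mkrn3 window held 15, the Ndn window 11 and the Snrpn and Snurf window 7, which is the median of all windows. The letters GCATGCG, searched on both strands, occurred in 3.58% of all windows. Among the members' 12 windows they occurred in 6, namely the 4 Snrpn windows, the Snurf window that repeats one of these, and the Ndn window. The Snrpn windows other than the one shared with Snurf hold long stretches of sequence in common. The 6 are therefore not separate occurrences, and their share was not tested against that of all windows. They were not found in the windows of Ube3a, Magel2, Mkrn3, Atp10a or Herc2.

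The libraries held 1730164 to 4583777 counts over genes. Top1, the targeted gene, was at 117 to 163 CPM (counts relative to the library total, scaled by TMM) in the 6 WT libraries and at 27.1 to 44.0 CPM in the 6 Top1 cKO libraries. Top1 was thus lowered but not absent in Top1 cKO cultures. The paper places the residual TOP1 protein most likely in uninfected neurons and/or non-neuronal cells. Bulk counts do not separate such cells from those that lost Top1. Summed over 10 neuronal markers the libraries ranged from 6634 to 8897 CPM, so neurons were present throughout. The 8 astrocyte markers summed to 2370 to 4826 CPM (WT-Veh), 1087 to 1836 CPM (WT-Topot), 2685 to 6145 CPM (Top1 cKO-Veh) and 1686 to 3110 CPM (Top1 cKO-Topot). No astrocyte marker was at 0 in all libraries. Microglial markers summed to at most 7.90 CPM, oligodendrocyte lineage markers to at most 297 CPM, endothelial and mural markers to at most 43.4 CPM and proliferation markers to at most 45.0 CPM.

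Levels are compared between genes per length, as RPKM from the summed exons of GENCODE vM1. The reads were counted over RefSeq exons, whose lengths may differ, so the order of genes depends on that annotation. In WT-Veh, Ndn had the highest level, at 368 ± 86.9 RPKM (SD, n = 3). Ube3a at 38.0 ± 2.97 RPKM and Snrpn at 37.7 ± 3.48 RPKM came next and did not differ beyond their spread. Mkrn3 at 14.6 ± 4.85 RPKM and Herc2 at 12.4 ± 2.06 RPKM also overlapped. Magel2 at 1.5 ± 0.522 RPKM and Atp10a at 0.743 ± 0.379 RPKM were lowest, with 4 to 42 counts in every library, and counting error limits what can be seen of both. In WT-Topot the levels of Ube3a (57.8 ± 16.3 RPKM) and Snrpn (24.4 ± 3.50 RPKM) stood apart, and Snrpn was beside Mkrn3 (25.3 ± 7.36 RPKM).

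**Figure D1:**
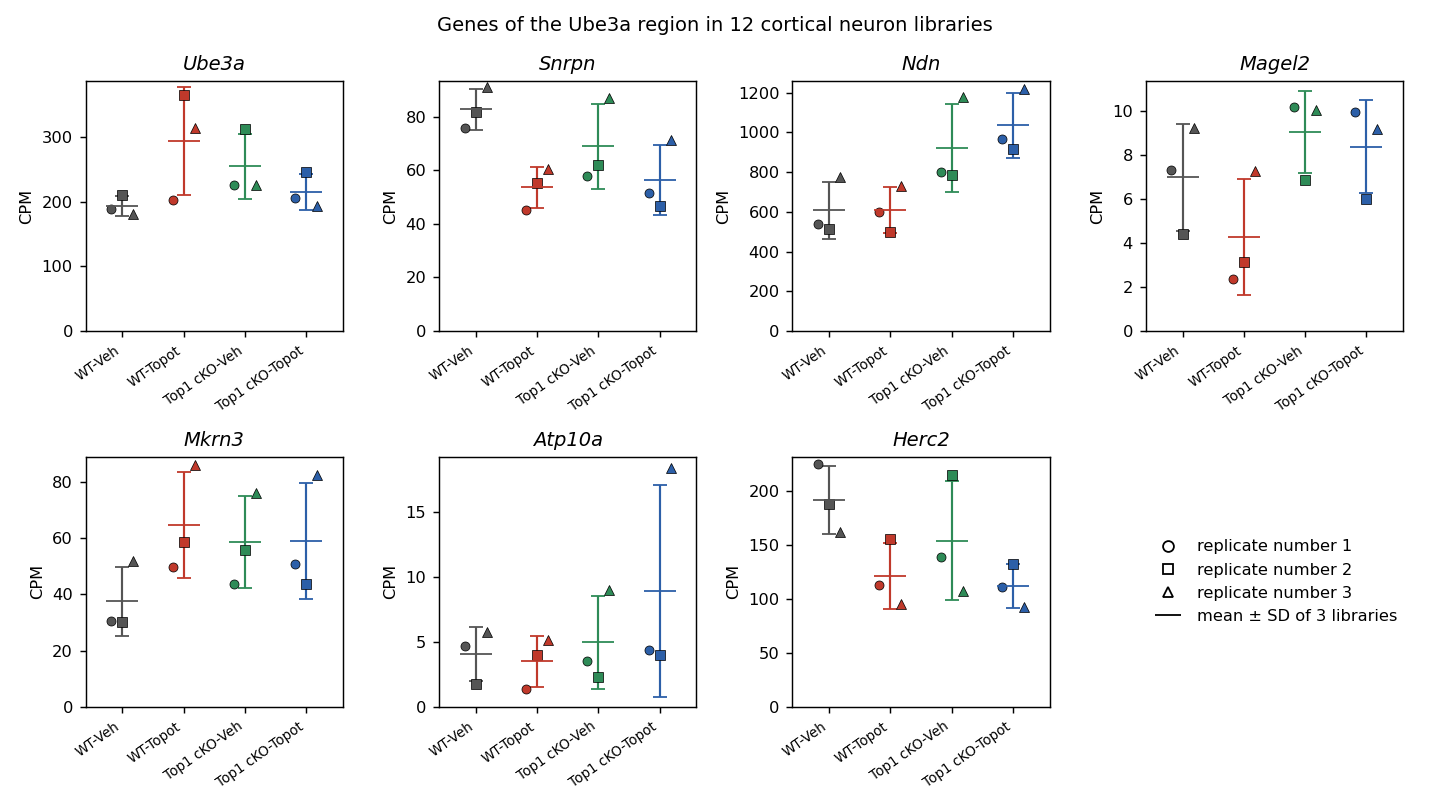
Levels of 7 genes of the Ube3a region, 1 panel a gene, with CPM on a linear axis from 0 and the 4 groups along the horizontal axis. Symbols are single libraries by replicate number, and bars are the mean ± SD of 3 libraries. Snrpn and Herc2 sat lower in every WT-Topot library than in every WT-Veh library, and Ndn sat higher in every Top1 cKO library than in every WT library.

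Ube3a encodes the HECT-domain ubiquitin ligase UBE3A, also called E6AP. In replicates 1, 2 and 3 of each group, here and below, it stood at 188, 211 and 182 CPM (WT-Veh), 203, 365 and 315 CPM (WT-Topot), 227, 314 and 226 CPM (Top1 cKO-Veh) and 206, 246 and 194 CPM (Top1 cKO-Topot). WT-Topot replicates 2 and 3 were above every other library, whereas WT-Topot replicate 1 lay within the range of WT-Veh. All 3 Top1 cKO-Veh libraries were above all 3 WT-Veh libraries.

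Snrpn encodes SmN, a neuronal Sm protein of the spliceosome, and Snurf the small protein read upstream of it in the same transcript. Snrpn stood at 75.8, 82.0 and 91.0 CPM (WT-Veh), 45.2, 55.2 and 60.4 CPM (WT-Topot), 57.9, 62.1 and 87.2 CPM (Top1 cKO-Veh) and 51.4, 46.8 and 71.3 CPM (Top1 cKO-Topot). The 3 WT-Topot libraries lay below the 3 WT-Veh libraries with no overlap, and the Top1 cKO groups overlapped each other. Snurf gave the same picture from the same reads, with 2093 counts in all against 2099 for Snrpn.

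Ndn encodes necdin, a MAGE family protein of postmitotic neurons. It stood at 539.8, 511 and 773 CPM (WT-Veh), 597, 501 and 732 CPM (WT-Topot), 799.7, 788 and 1176 CPM (Top1 cKO-Veh) and 968, 916 and 1221 CPM (Top1 cKO-Topot). Every Top1 cKO library exceeded every WT library, and the 2 WT groups overlapped almost fully.

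Mkrn3 encodes makorin 3, a RING finger ubiquitin ligase known from the timing of puberty. It stood at 30.4, 30.2 and 51.8 CPM (WT-Veh), 49.9, 58.7 and 86.1 CPM (WT-Topot), 43.8, 55.9 and 76.2 CPM (Top1 cKO-Veh) and 51.0, 43.8 and 82.6 CPM (Top1 cKO-Topot). Replicate 3 was the highest library in each group, and WT-Veh replicate 3 reached into the range of the other groups.

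Magel2 encodes a MAGE protein that works with a ubiquitin ligase in endosomal protein recycling. It stood at 7.31, 4.38 and 9.21 CPM (WT-Veh), 2.35, 3.15 and 7.28 CPM (WT-Topot), 10.2, 6.87 and 10.02 CPM (Top1 cKO-Veh) and 9.96, 5.98 and 9.18 CPM (Top1 cKO-Topot). WT-Topot was the lowest group, but its replicate 3 overlapped WT-Veh and both Top1 cKO groups.

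Herc2 encodes a very large HECT-domain ligase that binds UBE3A, and it is not imprinted. It stood at 225, 188 and 161 CPM (WT-Veh), 112, 155 and 95.5 CPM (WT-Topot), 139, 215 and 107 CPM (Top1 cKO-Veh) and 111, 133 and 92.2 CPM (Top1 cKO-Topot). WT-Veh and WT-Topot did not overlap, while Top1 cKO-Veh spanned nearly the whole range of both.

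Atp10a encodes a phospholipid flippase whose imprinting differs between strains and tissues. It stood at 4.68, 1.75 and 5.76 CPM (WT-Veh), 1.34, 4.01 and 5.14 CPM (WT-Topot), 3.52, 2.29 and 9.02 CPM (Top1 cKO-Veh) and 4.38, 3.99 and 18.4 CPM (Top1 cKO-Topot). The groups overlapped, and 1 library, Top1 cKO-Topot replicate 3, was far above the rest.

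WT-Topot against WT-Veh asks what topotecan did where TOP1 was intact. Ube3a was 1.52-fold higher and Mkrn3 1.73-fold higher by the ratio of mean CPM, whereas Snrpn was 1.55-fold lower and Herc2 1.58-fold lower. With edgeR's quasi-likelihood test on these 6 libraries and p adjusted over all genes (Benjamini-Hochberg), 0 of 8 symbols passed an FDR of 0.01, a threshold passed by 2.72% of all genes. At an unadjusted p under 0.05 there were 5 (13.1% of all genes), and DESeq2's Wald test also called 0 at 0.01. At an FDR of 0.1 the count was 4 (5.99% of all genes). Libraries with the same replicate number deviated together across groups. With the number as a block in the fit 5 of 8 passed at 0.01 (8.25% of all genes). Herc2, Snrpn and Snurf were lower and Ube3a and Mkrn3 higher. Fits with the block, here and below, draw each gene's spread largely from other genes. The groups did not overlap for 3 symbols, against 26.3% of genes averaging 1 CPM or more. With Snrpn and Snurf counted once, 0 of 7 passed at 0.01, 3 at an FDR of 0.1, 4 at an unadjusted p under 0.05 and 4 with the block, and the groups did not overlap for 2.

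The log2 fold change of Ube3a was 0.61 (SE 0.202, adjusted p = 0.114 by edgeR), and 0.57 (SE 0.125, adjusted p = 0.000277) with the block. Within replicate numbers 1, 2 and 3 the log2 difference was 0.11, 0.79 and 0.79, so the smallest was in number 1. Snrpn was at -0.62 (SE 0.200, adjusted p = 0.0964 by edgeR, 0.00195 with the block), with within-number differences of -0.74, -0.57 and -0.59. Herc2 was at -0.66 (SE 0.203, adjusted p = 0.0786, 5.89e-05 with the block). Mkrn3 was at 0.81 (SE 0.260, adjusted p = 0.0938, 0.000256 with the block), and without WT-Veh replicate 3 it passed in the fit without the block, at 1.10 with an adjusted p of 0.0020. Ndn was at 0.01 (SE 0.192), Magel2 at -0.73 (SE 0.493) and Atp10a at -0.21 (SE 0.577), none past the threshold in either fit. In bulk RNA, fewer cells of a type and less RNA per cell cannot be told apart. The 8 astrocyte markers had a median log2 fold change of -1.45 in this comparison, with 3 lower at an FDR of 0.01, and the 10 neuronal markers a median of -0.35, with 1 lower. The part of both in the values of Ube3a, Snrpn, Herc2 and Mkrn3 was not tested.

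Top1 cKO-Veh against WT-Veh asks what loss of Top1 did without the drug, and it uses the same WT-Veh libraries as the comparison above. Ndn was 1.52-fold higher, Mkrn3 1.56-fold higher and Ube3a 1.32-fold higher by mean CPM. By edgeR 0 of 8 symbols passed at 0.01 (0.172% of all genes), 3 had an unadjusted p under 0.05 (8.72% of all genes), and DESeq2's Wald test called 0. With the block 2 passed (5.56% of all genes), Ndn and Mkrn3, both higher. The groups did not overlap for Ndn and Ube3a, 2 of 8 symbols against 20% of genes.

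Ndn rose with the block by a log2 fold change of 0.60 (SE 0.0972, adjusted p = 6.36e-08 by edgeR), and without it the value was 0.60 (SE 0.203, adjusted p = 0.271). Its within-number differences were 0.57, 0.62 and 0.61, closely alike. Mkrn3 was at 0.65 (SE 0.272, adjusted p = 0.461, 0.00423 with the block). Ube3a was at 0.40 (SE 0.184, adjusted p = 0.548), and with the block at 0.39 (SE 0.120, adjusted p = 0.0182), which did not pass 0.01. Its within-number differences were 0.27, 0.57 and 0.31. Snrpn was at -0.27 (SE 0.213), Herc2 at -0.31 (SE 0.232), Magel2 at 0.36 (SE 0.402) and Atp10a at 0.21 (SE 0.605). The astrocyte markers had a median of 0.08 here and the neuronal markers 0.06, with 0 of 8 and 0 of 10 past the threshold.

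Top1 cKO-Topot against Top1 cKO-Veh asks what topotecan did in cultures given CRE, where Top1 was lowered but not absent. The share of cells that kept Top1 in these values was not tested. No symbol passed at 0.01 by edgeR (0 of 8, against 0.00837% of all genes), 0 had an unadjusted p under 0.05 (4.32% of all genes), and DESeq2's Wald test called 0. The groups overlapped for all 8 symbols, whereas 11.8% of genes had groups that did not. Herc2 alone passed with the block (1 of 8, against 2.59% of all genes), lower by a log2 fold change of -0.42 (SE 0.114, adjusted p = 0.00942 by edgeR), and without it at -0.45 (SE 0.229, adjusted p = 1). Ube3a was at -0.24 (SE 0.176), with within-number differences of -0.14, -0.35 and -0.22, the opposite sign to the WT cultures in every number. Snrpn was at -0.28 (SE 0.227), Ndn at 0.18 (SE 0.176), Mkrn3 at 0.03 (SE 0.261) and Magel2 at -0.08 (SE 0.370). Atp10a was at 0.93 (SE 0.619), and without Top1 cKO-Topot replicate 3 it was at -0.14. The astrocyte markers had a median of -0.92 in this comparison and the neuronal markers -0.10, with 0 of 8 and 0 of 10 past the threshold. Their part in these values was not tested.

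**Figure D2:**
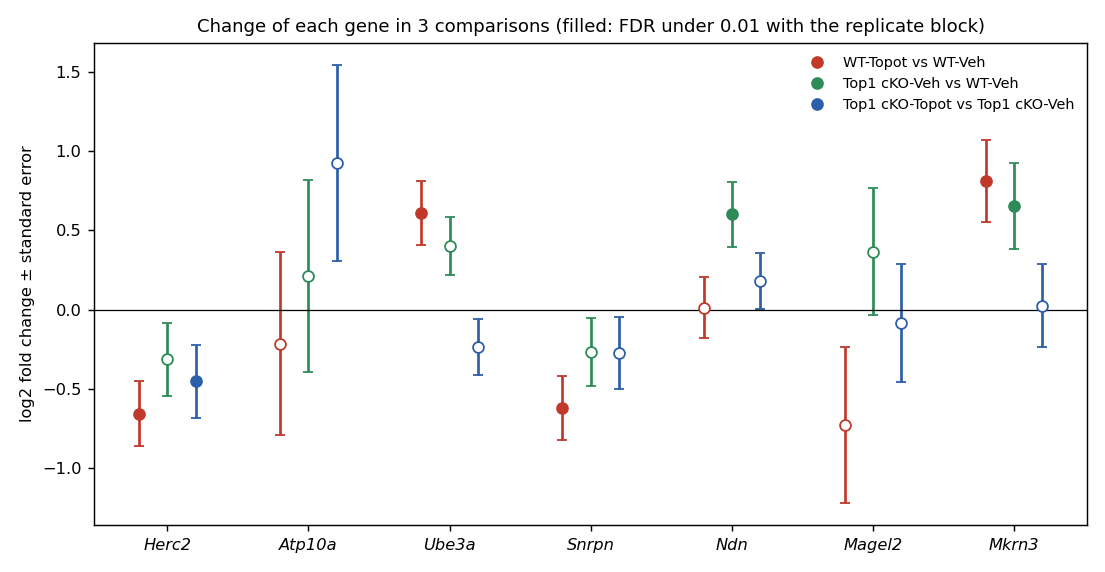
Log2 fold change with its standard error for 7 genes in 3 comparisons, from the fits without the replicate block. Filled points passed an FDR of 0.01 with the block. Ube3a lay above 0 in WT-Topot and Top1 cKO-Veh and below 0 for topotecan in Top1 cKO cultures. Herc2 lay below 0 in all 3 comparisons. The first 2 comparisons share the WT-Veh libraries.

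The difference between the topotecan effects of the 2 genotypes was tested on all 12 libraries as an interaction. For Ube3a it was -0.85 on the log2 scale (SE 0.279, adjusted p = 0.208 by edgeR), and -0.81 with the block (SE 0.167, adjusted p = 0.000594). The topotecan effect on Ube3a was thus lower in Top1 cKO than in WT cultures in the fit with the block, and by -0.25, -1.14 and -1.01 in replicate numbers 1, 2 and 3. By edgeR 0 of 8 symbols passed at 0.01 without the block (0.435% of all genes), 1 had an unadjusted p under 0.05 (8.23% of all genes), DESeq2's Wald test called 0, and with the block 1 passed, Ube3a (3.97% of all genes). Mkrn3 was at -0.79 (SE 0.398, adjusted p = 0.662, 0.0162 with the block) and Snrpn at 0.34 (SE 0.297, adjusted p = 1). Ndn was at 0.16 (SE 0.275), Herc2 at 0.20 (SE 0.330), Magel2 at 0.64 (SE 0.613) and Atp10a at 1.14 (SE 0.932).

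Topotecan-treated cultures of the 2 genotypes were compared directly. Ndn was 1.7-fold higher in Top1 cKO-Topot than in WT-Topot, with a log2 fold change of 0.76 (SE 0.163, adjusted p = 0.00554 by edgeR), and it was the 1 symbol of 8 that passed at 0.01 (2.49% of all genes). Its within-number differences were 0.70, 0.87 and 0.74, and it was the 1 symbol whose groups did not overlap (27.5% of genes). The call was lost without WT-Topot replicate 2 (adjusted p = 0.0107), among genes kept by filterByExpr (0.0176) and in 1 fit on all 12 libraries (0.0291), at values of 0.64 to 0.78. With the block 2 symbols passed (8.69% of all genes), Ndn higher at an adjusted p of 2.87e-10 and Ube3a lower by -0.43 (SE 0.113, adjusted p = 0.00565). Without the block Ube3a was at -0.45 (SE 0.190, adjusted p = 0.229), and its within-number differences of 0.02, -0.57 and -0.70 left replicate number 1 near 0. The astrocyte markers had a median of 0.47 here, with 1 of 8 higher, and the neuronal markers 0.20, with 3 of 10 higher and 1 lower. The part of both in the values of Ndn and Ube3a was not tested.

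WT-Topot against Top1 cKO-Veh sets the drug in WT cells beside deletion without the drug. By edgeR 0 of 8 symbols passed at 0.01 (1.53% of all genes), 2 had an unadjusted p under 0.05 (12.1% of all genes), and DESeq2's Wald test called 0. With the block 1 passed (7.73% of all genes), Ndn, which was lower in WT-Topot by -0.59 (SE 0.0798, adjusted p = 5.44e-07 by edgeR) and at -0.59 (SE 0.182, adjusted p = 0.101) without the block, and whose groups alone did not overlap (24.5% of genes). Ube3a was at 0.20 (SE 0.206, adjusted p = 0.885) and Magel2 at -1.10 (SE 0.451, adjusted p = 0.282). The other symbols were between -0.42 for Atp10a (SE 0.593) and 0.15 for Mkrn3 (SE 0.241), within 2 standard errors of 0. The astrocyte markers had a median of -1.55, with 3 of 8 lower, and the neuronal markers -0.28, with 3 of 10 lower, and their part in the values of Ndn and Magel2 was not tested.

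The ratio of Ube3a to Snrpn counts within a library does not depend on the library's scaling. It is built from the counts of both genes described above and is not evidence separate from them. As log2 it was 1.31, 1.36 and 1.00 for WT-Veh, 2.16, 2.72 and 2.38 for WT-Topot, 1.97, 2.34 and 1.37 for Top1 cKO-Veh and 2.0, 2.39 and 1.44 for Top1 cKO-Topot. Every library of the other groups was above every WT-Veh library. The means were 1.22 ± 0.197 for WT-Veh, 2.42 ± 0.282 for WT-Topot, 1.89 ± 0.487 for Top1 cKO-Veh and 1.94 ± 0.476 for Top1 cKO-Topot (SD, n = 3).

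WT-Topot exceeded WT-Veh by 1.2 on this log2 scale and Top1 cKO-Veh exceeded WT-Veh by 0.67, each with p = 0.1 in a two-sided exact permutation test, the smallest that 3 against 3 allows, and an adjusted value of 0.3 over the 6 comparisons made. The WT-Topot difference was 0.85, 1.36 and 1.38 in the 3 replicate numbers, and the Top1 cKO-Veh difference 0.65, 0.98 and 0.37. In Top1 cKO cultures the ratio with topotecan differed by 0.05 (exact permutation p = 0.7, adjusted 0.7), with within-number values of 0.03, 0.05 and 0.07. The topotecan effect on the ratio differed between genotypes by -1.15, and by -0.82, -1.31 and -1.31 in the 3 numbers. An exact sign-flip permutation test over these 3 gave p = 0.25, the smallest possible (adjusted 0.36). Top1 cKO-Topot against WT-Topot differed by -0.48 (exact permutation p = 0.3, adjusted 0.36) and WT-Topot against Top1 cKO-Veh by 0.53 (p = 0.2, adjusted 0.36).

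**Figure D3:**
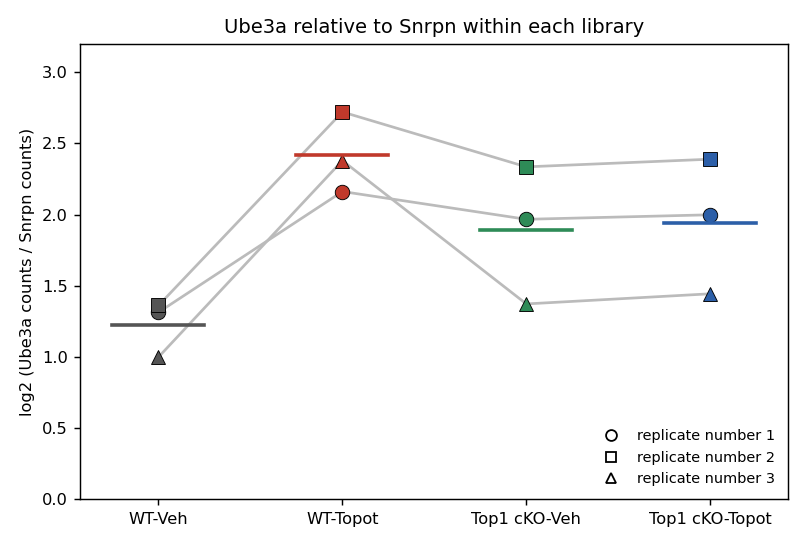
Log2 ratio of Ube3a to Snrpn counts in each of 12 libraries, with grey lines joining libraries of the same replicate number and coloured bars at the group means. All WT-Veh libraries lay at or below 1.36 and all other libraries at or above 1.37. The lines between Top1 cKO-Veh and Top1 cKO-Topot were nearly flat.

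RefSeq lists 2 rows of the table, D7Ertd715e and C230091D08Rik, as synonyms of Snhg14, the transcript antisense to Ube3a, which overlaps 46.4% of the Ube3a span in RefSeq. GENCODE vM1 places C230091D08Rik at chr7:66572581-66572689 (NCBIM37, minus strand), just past the end of Ube3a, with 54 exonic bases. D7Ertd715e had no GENCODE vM1 entry. On 54 bases the C230091D08Rik row would be at 1829 RPKM in WT-Veh, beside 368 RPKM for Ndn. The RefSeq model that was counted may therefore differ from this interval, and its overlap with Ube3a is not known. The strand used in counting is not given in the sources used here, so sense and antisense reads cannot be told apart where transcripts overlap. None of the 5097 exonic bases of Ube3a lay under an exon of the other strand in GENCODE vM1 (0 bases). D7Ertd715e is absent from that annotation, and the reads were counted over RefSeq exons. Overlap with RefSeq exons of the other strand was not examined, so the 0 bases cannot tell whether Ube3a counts include antisense reads.

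D7Ertd715e stood at 31.9, 32.4 and 51.3 CPM (WT-Veh), 14.7, 23.8 and 29.5 CPM (WT-Topot), 33.6, 39.6 and 33.6 CPM (Top1 cKO-Veh) and 18.3, 26.2 and 20.5 CPM (Top1 cKO-Topot). The topotecan groups lay below the vehicle group of the same genotype with no overlap. Its log2 fold change with topotecan was -0.75 in WT cultures (SE 0.286, adjusted p = 0.195 by edgeR, 0.00455 with the block). In Top1 cKO cultures it was -0.70 (SE 0.242, adjusted p = 0.735 by edgeR, 0.00846 with the block). The interaction was 0.04 (SE 0.379, adjusted p = 1). Top1 cKO-Veh differed from WT-Veh by -0.10 (SE 0.249).

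C230091D08Rik went the other way in WT cells. It stood at 99.2, 104 and 92.7 CPM (WT-Veh), 127, 192 and 136 CPM (WT-Topot), 109.9, 155 and 88.7 CPM (Top1 cKO-Veh) and 78.9, 128 and 81.3 CPM (Top1 cKO-Topot). Every WT-Topot library was above every WT-Veh library. Its log2 fold change with topotecan was 0.62 in WT cultures (SE 0.195, adjusted p = 0.0826 by edgeR, 0.000561 with the block). In Top1 cKO cultures it was -0.29 (SE 0.232). The interaction was -0.92 (SE 0.319, adjusted p = 0.260 by edgeR, 0.000862 with the block). The corresponding Ube3a values were 0.61, -0.24 and -0.85. The interaction differed from 0 for Ube3a and C230091D08Rik in the fit with the block and not for D7Ertd715e, and the difference between these rows was not tested.

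**Figure D4:**
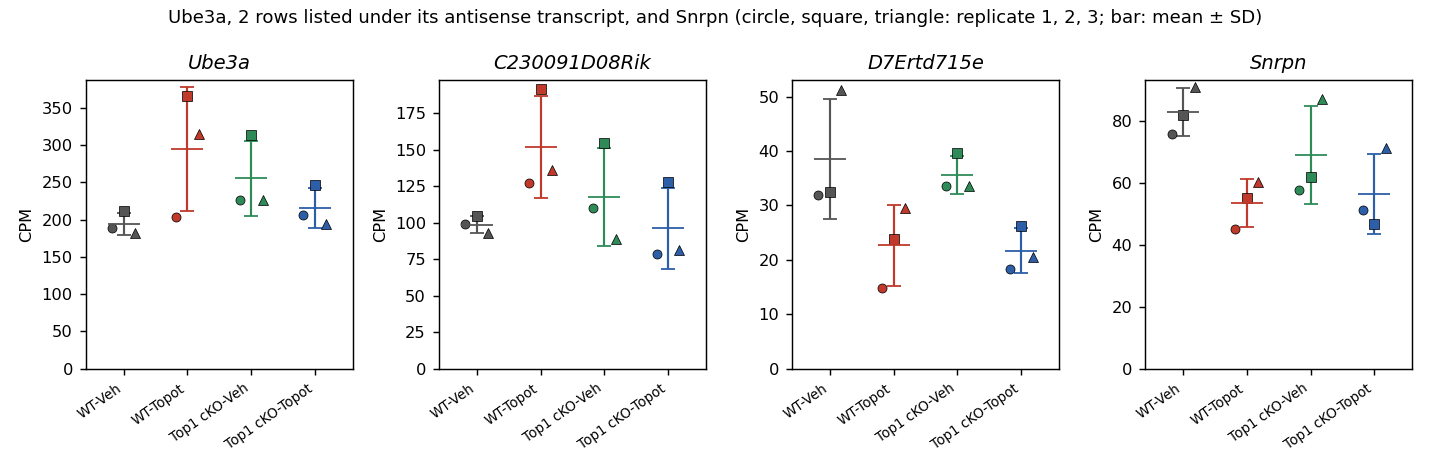
CPM of Ube3a, C230091D08Rik, D7Ertd715e and Snrpn in the 4 groups, on linear axes from 0, with single libraries and the mean ± SD of 3. Ube3a and C230091D08Rik had their highest libraries in WT-Topot. D7Ertd715e was lower with topotecan in both genotypes, and Snrpn was lower in every WT-Topot library than in every WT-Veh library.

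Along the chromosome, 22 of 26 listed neighbours were in the table and 19 had a mean of at least 1 CPM in the WT libraries. In WT-Topot against WT-Veh 2 of 22 were lower and 0 higher at 0.01 by edgeR (2.72% of all genes in either direction), and 4 lower and 1 higher with the block (8.25%). The median log2 fold change of the 19 was -0.21, beside -0.21 over the 7 genes of the region with Snrpn and Snurf counted once, and 0.03 over the 13760 genes at that level. Otud7a, a deubiquitinase gene, fell from 31.0, 55.7 and 33.4 CPM to 7.04, 14 and 7.28 CPM, a log2 fold change of -2.05 (SE 0.327, adjusted p = 0.000396 by edgeR). Gabra5, a GABA-A receptor subunit gene beyond Atp10a, was at -0.97 (SE 0.227, adjusted p = 0.0139, 7.78e-09 with the block). Klf13 was at 0.37 (SE 0.165), Cyfip1 at -0.13 (SE 0.190) and Nipa2 at -0.12 (SE 0.187), none past the threshold.

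In Top1 cKO cultures, the median of the neighbours with a mean of at least 1 CPM was -0.06 with topotecan. In Top1 cKO-Topot against Top1 cKO-Veh 0 of 22 passed (0.00837% of all genes), and 2 with the block (2.59%). Otud7a was at -0.28 (SE 0.25). The interaction was 1.76 for Otud7a (SE 0.422, adjusted p = 0.0422, 0.000101 with the block), of the opposite sign to Ube3a. Their log2 fold changes with topotecan in WT cells were also opposite, -2.05 for Otud7a and 0.61 for Ube3a. In Top1 cKO-Veh against WT-Veh 0 of 22 passed (0.172% of all genes), and with the block 1 (5.56%), Gabra5, which was at -1.08 (SE 0.239, adjusted p = 0.0503, 1.83e-13 with the block).

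**Figure D5:**
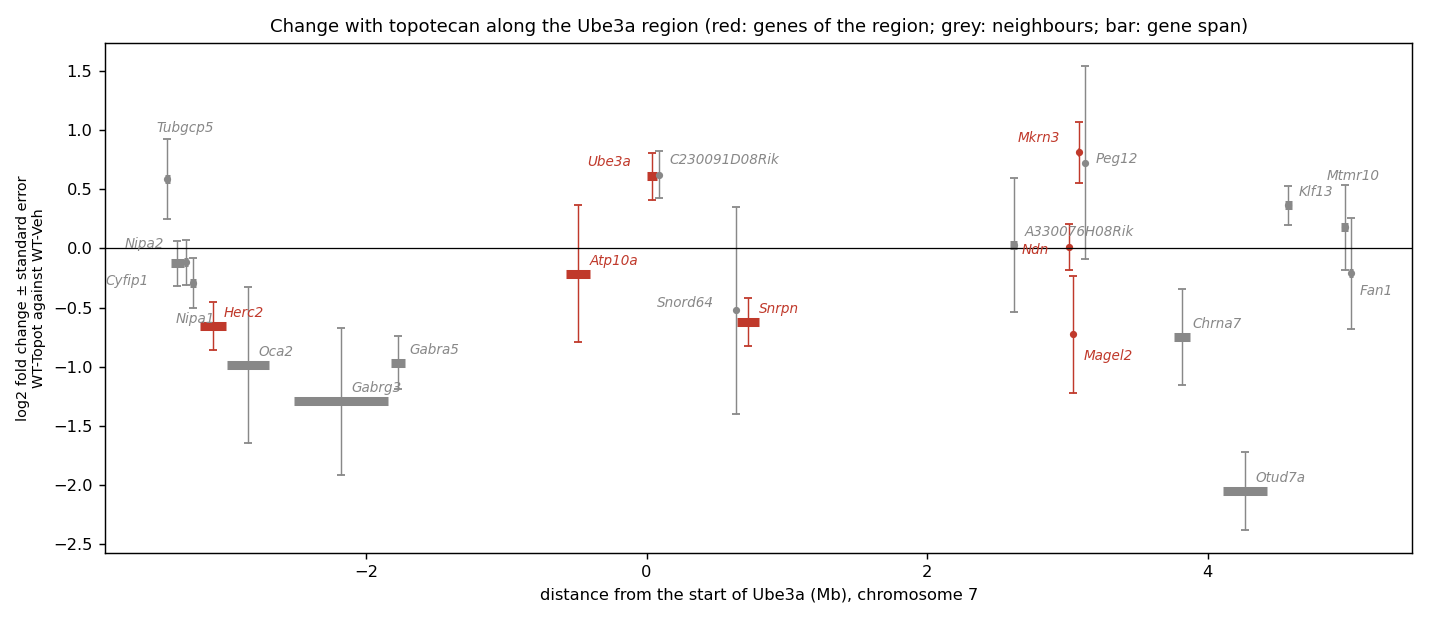
Log2 fold change of WT-Topot against WT-Veh with its standard error (vertical axis) against distance from the start of Ube3a in Mb (horizontal axis). Horizontal bars are gene spans to scale, red for the genes of the region and grey for the labelled neighbours of at least 1 CPM. Ube3a lay above 0, as did C230091D08Rik, which is drawn at its GENCODE vM1 position. Herc2, Gabra5, Snrpn and Otud7a lay below 0.

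Genes related by imprinting or by function were taken as lists. Of 66 imprinted genes elsewhere in the genome, 2 were lower and 2 higher at 0.01 in WT-Topot against WT-Veh (2.72% of all genes in either direction), and 10 lower and 7 higher with the block (8.25%). The median log2 fold change was 0.03 over the 53 with a mean of at least 1 CPM. Trappc9, a trafficking factor gene, was lower by -1.48 (SE 0.280, adjusted p = 0.00232 by edgeR) and its neighbour Kcnk9, a potassium channel gene, was higher by 1.59 (SE 0.241, adjusted p = 0.000235). Usp29 was lower by -1.01 (SE 0.192, adjusted p = 0.00241) and Nnat, which encodes neuronatin, higher by 0.98 (SE 0.195, adjusted p = 0.00358). None of the 66 passed in the interaction without the block (0 at 0.01 against 0.435% of all genes, 14 at an unadjusted p under 0.05 against 8.23%), and 9 did with it (3.97%).

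Of 24 HECT-domain ligases, the family of UBE3A, 2 were lower and 0 higher with topotecan in WT cells (2.72% of all genes in either direction), and 4 lower and 0 higher with the block (8.25%), with a median of -0.02. Hecw2 was lower by -1.93 (SE 0.222, adjusted p = 1.15e-05 by edgeR) and Hecw1 by -1.03 (SE 0.228, adjusted p = 0.00884). The interaction was 1.76 for Hecw2 (SE 0.274, adjusted p = 0.0020). Of 12 genes, those of Sm core and U1 proteins together with Smn1 and Gemin2, 0 passed in either fit and 0 had an unadjusted p under 0.05, against the same 2.72%, 8.25% and 13.1% of all genes. Snrpb, the counterpart of Snrpn, was named after its value was seen and was at 0.45 (SE 0.283, adjusted p = 0.624). Of 17 MAGE family genes and partners of the MAGEL2 ligase, 0 passed and 2 were higher with the block (2.72% and 8.25% of all genes), with 2 at an unadjusted p under 0.05 (13.1%).

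The genes whose pattern over the 12 libraries was closest to Ube3a were found among 9506 genes of at least 10 CPM, as the root mean square difference of log2(CPM + 1) after centring each gene. They were Pgr at 0.145, 2900056M20Rik at 0.146, Atxn3 at 0.153, Lyrm9 at 0.157 and Mapkbp1 at 0.158, beside an SD of 0.313 for Ube3a itself. Pgr encodes the progesterone receptor and Atxn3 the deubiquitinase ataxin 3. Mean CPM of Lyrm9 was 70.9 for WT-Veh, 126 for WT-Topot, 106 for Top1 cKO-Veh and 89.0 for Top1 cKO-Topot. Closest to Snrpn, after Snurf at 0.006, were Pnpla8 at 0.116, Zfp850 at 0.128, Gpm6a at 0.144 and Ndfip2 at 0.145, beside an SD of 0.324. Gpm6a, a neuronal membrane glycoprotein gene, had mean CPM of 3060, 1705, 2340 and 1848 in the same order of groups.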

How the data were processed

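RNA-seq libraries (TruSeq RNA kit, 50 bp paired-end reads) were filtered with TagDust, aligned to mm9 with TopHat and counted over RefSeq exons by the authors, who deposited raw counts per gene symbol. The counting program, its strand setting and the RefSeq release are not given in the sources used here. Groups and replicate numbers came from the labels.

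The 23893 genes were fitted for each pair of groups on its 6 libraries with edgeR 4.0.16 (R 4.3.3): TMM scaling, no filter on low counts, quasi-likelihood test, Benjamini-Hochberg adjustment over all genes and an FDR of 0.01 as threshold. The interaction used all 12 libraries. Standard errors were derived from the F statistic. Alternatives were other scalings, DESeq2 1.42.0, filterByExpr, an FDR of 0.1, 1 fit on all libraries, each library left out and the replicate number as a block. Single-gene values of the 1 fit on all libraries were added after the data were seen. Same-numbered libraries deviated together (Pearson's r 0.261 to 0.485 over 18 pairs and 13720 genes), which is why blocked values are printed. The mean of each group was subtracted first, so deviations within a group sum to 0. The range of -0.384 to -0.0494 over 36 pairs of other numbers follows in part from that subtraction. Whether a number marks a shared culture or litter is not stated, so p-values refer to spread between libraries. The edgeR test draws each gene's spread in part from other genes. With the block, fits on 6 libraries leave few degrees of freedom. The blocked p-values therefore rest largely on spread pooled over genes, and not on that of the gene itself.

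Members and lists were chosen with earlier results of these data known. All members, genes called from each list in WT-Topot against WT-Veh or in the interaction, neighbours, and the 5 genes most like Ube3a and Snrpn were named. Total counts of 1730164 to 4583777 set the precision. Scripts were tested on simulated data. Results for 1 neighbour are not reported here.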

Additional observations from a re-analysis of the deposited data

Results flagged for a closer look

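The effect of topotecan on Ube3a differed between Top1 cKO and WT cultures in the test of the difference itself, by -0.81 on the log2 scale (SE 0.167, adjusted p = 0.000594 by edgeR with the replicate block). With the block, the log2 fold change of Ube3a with topotecan was 0.57 in WT and -0.23 in Top1 cKO cultures. In the fits without the block the values were 0.61 and -0.24. The difference was negative in 3 of 3 replicate numbers and smallest in number 1. Without the block it was -0.85 (SE 0.279) and did not pass, and the adjusted p ranged from 0.000594 to 0.491 over the alternatives.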

How the results depend on the processing

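Other scalings moved the median of all genes by less than 0.1 on the log2 scale. With the replicate block the number of symbols past an FDR of 0.01 was 5 for WT-Topot against WT-Veh, 2 for Top1 cKO-Veh against WT-Veh, 1 for Top1 cKO-Topot against Top1 cKO-Veh, 2 for Top1 cKO-Topot against WT-Topot, 1 for WT-Topot against Top1 cKO-Veh and 1 for the interaction, in place of 0, 0, 0, 1, 0 and 0, and the block changed no other call of a symbol. At an FDR of 0.1 WT-Topot against WT-Veh gave 4. In Top1 cKO-Topot against WT-Topot, filterByExpr and 1 fit on all 12 libraries gave 0. The Ndn value in WT-Topot against WT-Veh turned to -0.012 with DESeq2's size factors, -0.012 with its Wald test and -0.013 with filterByExpr, and Mkrn3 in Top1 cKO-Topot against Top1 cKO-Veh to -0.0037 with the block. The causes were not tested.

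Leaving out 1 library at a time gave 0 to 1 symbols past the threshold for WT-Topot against WT-Veh (1, Mkrn3, without WT-Veh replicate 3) and 0 to 1 for Top1 cKO-Topot against WT-Topot (0 without WT-Topot replicate 2). The Ube3a to Snrpn ratio in Top1 cKO-Topot against Top1 cKO-Veh ranged from -0.21 to 0.30. Values that changed sign were, for WT-Topot against WT-Veh, Ndn (-0.15 to 0.23) and Atp10a (-0.57 to 0.17), and for Top1 cKO-Veh against WT-Veh, Atp10a (-0.50 to 0.60). For Top1 cKO-Topot against Top1 cKO-Veh they were Magel2 (-0.28 to 0.12), Mkrn3 (-0.29 to 0.25) and Atp10a (-0.14 to 1.63), and for Top1 cKO-Topot against WT-Topot Snrpn (-0.13 to 0.18), Mkrn3 (-0.45 to 0.12) and Herc2 (-0.26 to 0.11). For WT-Topot against Top1 cKO-Veh they were Mkrn3 (-0.083 to 0.36) and Atp10a (-0.81 to 0.27), and for the interaction Ndn (-0.045 to 0.38) and Herc2 (-0.00073 to 0.51). None of these had passed the threshold. Magel2 and Atp10a, with few counts, are the values that depth limits most.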
